A study of Mus musculus with 16 samples.

Results

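Ethinylestradiol (EE), a synthetic estrogen given to rodents to bring about cholestasis, was compared with its vehicle in mouse liver. The comparison used 8 of the 16 libraries of the study, chosen by sample title: 4 labelled CV and 4 labelled EV. All 16 libraries, the CV controls included, came from mice whose genotype label is Humanized PXR-CAR-CYP3A4/3A7, a name for human PXR and CAR, receptors that sense foreign compounds, and human CYP3A enzymes. CV mice received propylene glycol, and EV mice received EE at 10 mg/kg in propylene glycol by subcutaneous injection for 7 days. The labels give neither age nor sex, and they do not say whether these mice also received the oral vehicle of MI763F, the compound given to the other 8 mice (2.5 mg/kg for 6 days from day 2). Those are the groups CM, without EE, and EM, with EE. Poly(A) RNA from about 10 mg of liver was sequenced, and the deposited estimated counts summed to between 14115384 and 18642448 in the CV and EV libraries. Nothing in the labels ties a library to its own animal, so each p-value measures only how these samples spread, which may be technical.

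Ethinylestradiol acts through estrogen receptor alpha, a nuclear receptor that binds DNA as a dimer at palindromic response elements and also meets DNA through partner factors. The liver is a target of estrogens: hepatocytes express this receptor, and estrogens alter the secretion of hormone carriers, clotting factors and lipoproteins. At pharmacological doses EE slows bile flow, and rodents so treated serve as a model of the cholestasis that some women have in pregnancy. In whole liver, fewer cells of a type and less RNA per cell cannot be told apart.

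CV replicates 1 and 2 stood apart from the other CV and EV libraries on the second principal component (6.17% of the variance), at 35.6 and 45.2 against -2.95 to 2.73 for the other CV and EV libraries, so counts were also taken without this pair. Outside this comparison CM replicate 2 lay at -58.9; with only the CV and EV libraries in the fit, 2826 genes were called at least 2-fold, against 2827. Hepatocyte markers were present as labelled, with a summed level of 125000 to 155000 CPM (estimated counts scaled to a common library size) in CV and 52200 to 64700 CPM in EV. Of 12918 tested genes, 50.4% were called at an adjusted p under 0.05, 25.5% as higher and 24.9% as lower in EV. A further 2-fold rule left 12.9% higher and 8.98% lower, and these shares are the background for every list below. In this text CPM are scaled by composition factors, means are given ± SD over 4 libraries, and log2 fold changes are EV over CV. The composition factors (TMM) assume that most genes do not change; with plain library totals the median of all genes shifted by 0.49 on the log2 scale, and 83.7% of the 2-fold calls were then higher against 59.0% with the factors.

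The share of the library held by abundant transcripts differed for the top 50 genes. The 50 most abundant genes together held 39.3% to 43.9% of the CV libraries and 34.6% to 35.8% of the EV libraries, while the 10 most abundant held 18.4% to 22.7% and 17.5% to 18.4%, ranges that touch. The groups of losers and gainers given next were chosen by their change in share, which fixes that their EV and CV values differ. The 10 genes that lost most of the total held 14.7% to 17.1% of each CV library and 7.04% to 8.06% of each EV library. Alb, which encodes albumin, went from 5.45 ± 0.783% of the total in CV to 3.16 ± 0.283% in EV (SD, n = 4). The high-density lipoprotein gene Apoa1 held 1.41, 1.15, 1.39 and 1.14% of the CV libraries and 0.163, 0.209, 0.321 and 0.275% of the EV libraries, so the groups did not overlap. Apoa2, Apoc1, Apoe, Cyp2e1, Ahsg, Fabp1, Serpina1b and Hamp made up the rest of that group. The 10 genes that gained most rose from 4.03% to 4.79% of the total in CV to 7.66% to 7.99% in EV. Among the gainers Apoc2, an activator of lipoprotein lipase and a neighbour of Apoc1 and Apoe in the genome, went from 0.0385 ± 0.00452% of the total in CV to 0.26 ± 0.0272% in EV (SD, n = 4), against a loss at Apoc1 from 1.14 ± 0.14% of the total in CV to 0.29 ± 0.0134% in EV (SD, n = 4). Fth1, the heavy chain of the iron store ferritin (0.57 on the log2 scale), and the protease inhibitor Serpina3k (0.43) gained too. Of the other gainers, Mup22, Mup17 and Mup14 belong to the major urinary proteins, whose reads cannot be divided with certainty among near-identical copies. Mup22 (0.64 on the log2 scale), Hp (0.38), Trf (-0.28) and mt-Nd1 (-0.15) gained share of the total but were not called with the composition factors (TMM). Trf, the iron carrier transferrin, was close to the threshold (adjusted p = 0.0503) and was called lower with RLE factors (adjusted p = 0.0465) and with DESeq2 (adjusted p = 0.0247), and also without CV replicate 3, CV replicate 4 or EV replicate 4.

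**Figure D1:**
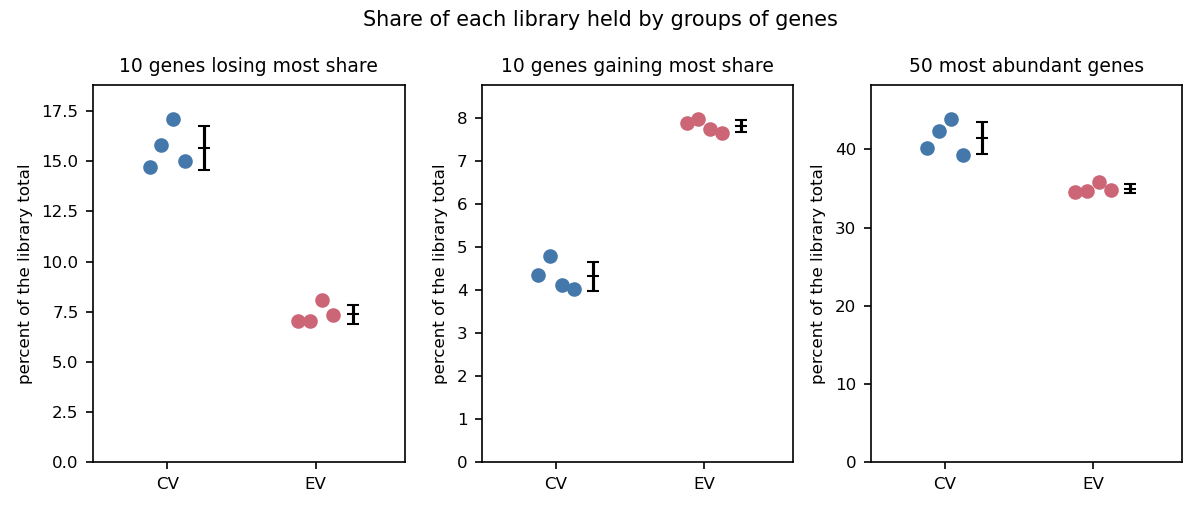
Percent of the library total held by the 10 genes that lost most share, the 10 that gained most share and the 50 most abundant genes, for each of the 4 CV (blue) and 4 EV (red) libraries; black bars are means ± SD. The EV libraries lie between 7.04% and 8.06% in the first panel, and between 7.66% and 7.99% in the second, sets that were chosen by this change; the third panel was not chosen so.

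A list of genes that respond to estrogen in other tissues held 3 large rises, at very different levels. Pgr, the progesterone receptor and a classical estrogen receptor target, was listed at 0 in all 4 CV libraries and measured 4.22, 3.11, 3.38 and 3.26 CPM in the EV libraries. Tff3, a mucosal trefoil peptide, stood at 1.92, 0, 0 and 0.236 CPM in the CV libraries and 76.1, 62.9, 128 and 69.7 CPM in the EV libraries. Lifr, the receptor for leukaemia inhibitory factor, measured 106, 120, 140 and 127 CPM in the CV libraries and 1820, 1600, 1580 and 1950 CPM in the EV libraries. The rule that named these 3 genes asks for groups that do not overlap, as 47.3% of all tested genes had. Lifr alone went from 0.0106 ± 0.00127% of the total in CV to 0.209 ± 0.0222% in EV (SD, n = 4); its log2 fold change was 3.82 ± 0.15 SE (adjusted p = 1.39e-10). Of 16 listed estrogen-responsive genes from other tissues 9 were tested, of which 5 rose, 4 at least 2-fold, and 2 fell. The falls were in Agt (-0.97) and Prlr (-0.7). A member almost silent in CV could pass the filter on low counts only through other groups, which favours rises among those tested. The fourth 2-fold rise was in the cyclin gene Ccnd1 (1.71). Its call was lost without CV replicates 1 and 2 (adjusted p = 0.147) and with single libraries left out (highest adjusted p = 0.0579). The receptor itself, Esr1, went from 8.34 ± 1.47 to 6.6 ± 0.62 CPM, a difference that missed the threshold (adjusted p = 0.0742) and passed without CV replicate 3 (adjusted p = 0.0289).

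Promoters of genes that rose were searched for the palindrome that estrogen receptors bind. The windows, RefSeq sequences of mouse build GRCm38.p6, ran from 250 bases before to 50 after each start, and 9441 tested genes had one. The full 13-letter palindrome GGTCANNNTGACC stood in 23 of 32851 windows (0.07%) and in 0 of the tested genes with a window. An 11-letter form was tried after that result was seen: GGTCANNNTGA on either strand, which differs from the palindrome only by leaving out the last 2 letters. It stood in 0.928% of all windows and in 0.657% of the tested genes with one, against 15 of 1228 genes that rose at least 2-fold (1.22%) and 5 of 798 that fell (0.627%). A match describes letters only and shows neither binding nor its effect. The 3 largest rises with a match were Cidec, Ovgp1 and Lifr, shown here 5′ to 3′ with the match in capitals.
Cidec (chr6:113434715-113435014, minus strand): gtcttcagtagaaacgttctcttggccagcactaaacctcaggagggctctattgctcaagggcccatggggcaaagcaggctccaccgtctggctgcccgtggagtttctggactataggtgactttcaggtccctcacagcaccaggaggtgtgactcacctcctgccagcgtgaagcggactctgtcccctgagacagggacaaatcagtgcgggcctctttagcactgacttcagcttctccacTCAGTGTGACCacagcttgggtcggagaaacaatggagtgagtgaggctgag
Ovgp1 (chr3:105973552-105973851, plus strand): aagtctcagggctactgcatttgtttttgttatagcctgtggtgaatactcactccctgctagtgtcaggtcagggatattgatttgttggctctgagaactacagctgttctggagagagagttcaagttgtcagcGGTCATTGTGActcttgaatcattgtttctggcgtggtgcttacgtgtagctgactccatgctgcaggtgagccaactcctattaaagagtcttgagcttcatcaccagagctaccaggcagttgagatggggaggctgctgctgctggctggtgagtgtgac
Lifr (chr15:7140292-7140591, plus strand): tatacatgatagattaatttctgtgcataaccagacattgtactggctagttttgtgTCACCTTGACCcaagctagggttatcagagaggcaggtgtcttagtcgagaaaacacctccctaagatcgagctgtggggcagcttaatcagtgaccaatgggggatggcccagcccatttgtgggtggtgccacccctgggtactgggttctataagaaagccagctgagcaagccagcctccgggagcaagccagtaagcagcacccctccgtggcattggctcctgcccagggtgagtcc
In Cidec the match begins 2 bases before the annotated start, in Ovgp1 113 and in Lifr 193 bases before it. Ovgp1, which encodes a glycoprotein that the oviduct secretes under estrogen, was at 0.498, 0.306, 0.206 and 0.0589 CPM in the CV libraries and 25.8, 28.5, 23.7 and 22.3 CPM in the EV libraries; it was singled out after its values were seen. The groups did not overlap, and the log2 fold change was 6.56 ± 0.39 SE (adjusted p = 1.31e-08).

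Several genes that the control livers barely expressed reached moderate levels in every EV library. Asic2, an acid-sensing sodium channel of neurons, was listed at 0 in all 4 CV libraries and measured 49.2, 37.9, 45.3 and 38.9 CPM in the EV libraries. Corin, the heart protease that activates natriuretic peptide, stood at 0.0712, 0.0764, 0 and 0.118 CPM in the CV libraries and 32.7, 30.2, 28.3 and 33.5 CPM in the EV libraries. Slc34a2, a sodium-phosphate cotransporter of lung and intestine, rose from 0.291 ± 0.105 to 117 ± 15.4 CPM. Barx2, a homeobox factor, rose from 0.0295 ± 0.0589 to 28.6 ± 7.82 CPM; Chst8, a sulfotransferase of pituitary hormone glycans, rose from 0.215 ± 0.2 to 47 ± 5.38 CPM; and Rgs7bp, which anchors regulators of G protein signalling in neurons, rose from 0.148 ± 0.0658 to 32.7 ± 3.9 CPM. The naming rule asked for groups that do not overlap, so that these 6 do not is no finding, and their folds are approximate because the CV levels rest on few counts. Gtpbp4-ps1, Gm12248 and Gm7334, a pseudogene and 2 predicted genes, were also among the 15 largest rises, with reads that may belong to related genes. The keratins Krt4 (0.072 ± 0.108 to 406 ± 109 CPM) and Krt79 (0.125 ± 0.114 to 127 ± 26.2 CPM), the exonuclease Trex2 and the myosin Myo15b (1 ± 0.766 to 150 ± 37.7 CPM) completed that group with Ly6d and Tff3.

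A second set rose from a low to a high level, by a smaller fold; it was singled out after its values were seen. Isyna1, which makes inositol phosphate from glucose 6-phosphate, measured 23.3, 6.8, 6.67 and 27.4 CPM in the CV libraries and 1110, 1180, 986 and 1420 CPM in the EV libraries. Tgm2, the cross-linking enzyme tissue transglutaminase, was at 51.7, 54.7, 53.5 and 67.6 CPM in the CV libraries and 1790, 1800, 1330 and 1350 CPM in the EV libraries. Gng12, a G protein gamma subunit, stood at 33.6, 29.7, 28.7 and 37.7 CPM in the CV libraries and 1240, 1190, 1050 and 1260 CPM in the EV libraries. All EV values lay above the CV values in these 3, which were chosen for it. Slco2a1, the prostaglandin uptake carrier, rose from 20.4 ± 2.34 to 348 ± 29.3 CPM. Prtn3, a serine protease known from neutrophils, measured 33.7, 0, 1.03 and 2.3 CPM in the CV libraries and 451, 383, 397 and 443 CPM in the EV libraries. Beside Prtn3, 7 of 13 listed neutrophil markers were tested and all rose, to a summed level of 64.8 to 173 CPM in EV from 5.64 to 23.5 CPM in CV. A marker almost silent in CV could pass the filter only through other groups, which favours rises among those tested. The part of neutrophils in the Prtn3 rise was not tested. Fabp4, a fatty acid binding protein of adipocytes, endothelium and macrophages, was at 6.98, 11.8, 9.28 and 14.9 CPM in the CV libraries and 880, 1440, 1210 and 600 CPM in the EV libraries. It was the only adipocyte or muscle marker of the list of 12 that was tested. The macrophage and endothelial sums stand with the cell markers that follow the immune genes.

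At the other end, several liver genes fell to a small part of their control level. Car3, a carbonic anhydrase abundant in fat, muscle and rodent liver, stood at 559, 1420, 1500 and 1050 CPM in the CV libraries and 9.42, 8.95, 37.1 and 4.52 CPM in the EV libraries. Scd1, the delta-9 desaturase, measured 1520, 927, 1060 and 650 CPM in the CV libraries and 30.5, 21.1, 22.4 and 17.3 CPM in the EV libraries. Car3 and Scd1 kept a measurable level in each EV library, and the groups did not overlap for either, as the naming rule required. Acot3, a peroxisomal thioesterase, fell from 72.4 ± 26.5 to 1.43 ± 0.617 CPM, and Slc22a7, an organic anion carrier, fell from 30.3 ± 7.06 to 0.265 ± 0.122 CPM. Hamp2, a copy of the hepcidin gene Hamp, fell from 769 ± 342 to 3.49 ± 3.47 CPM. Other falls among the 15 largest were in Rgs16 (-8.41), Slc22a26 (-8.09), Hsd17b6 (-7.82), Cyp8b1 (-6.23), Cyp2b13 (-7.79), Cyp2b9 (-6.77), Sult2a7 (-7.61), Sult2a1 (-6.21) and Sult2a5 (-5.50). The Slc22a, Cyp2b and Sult2a genes among them have close copies that may share reads.

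**Figure D2:**
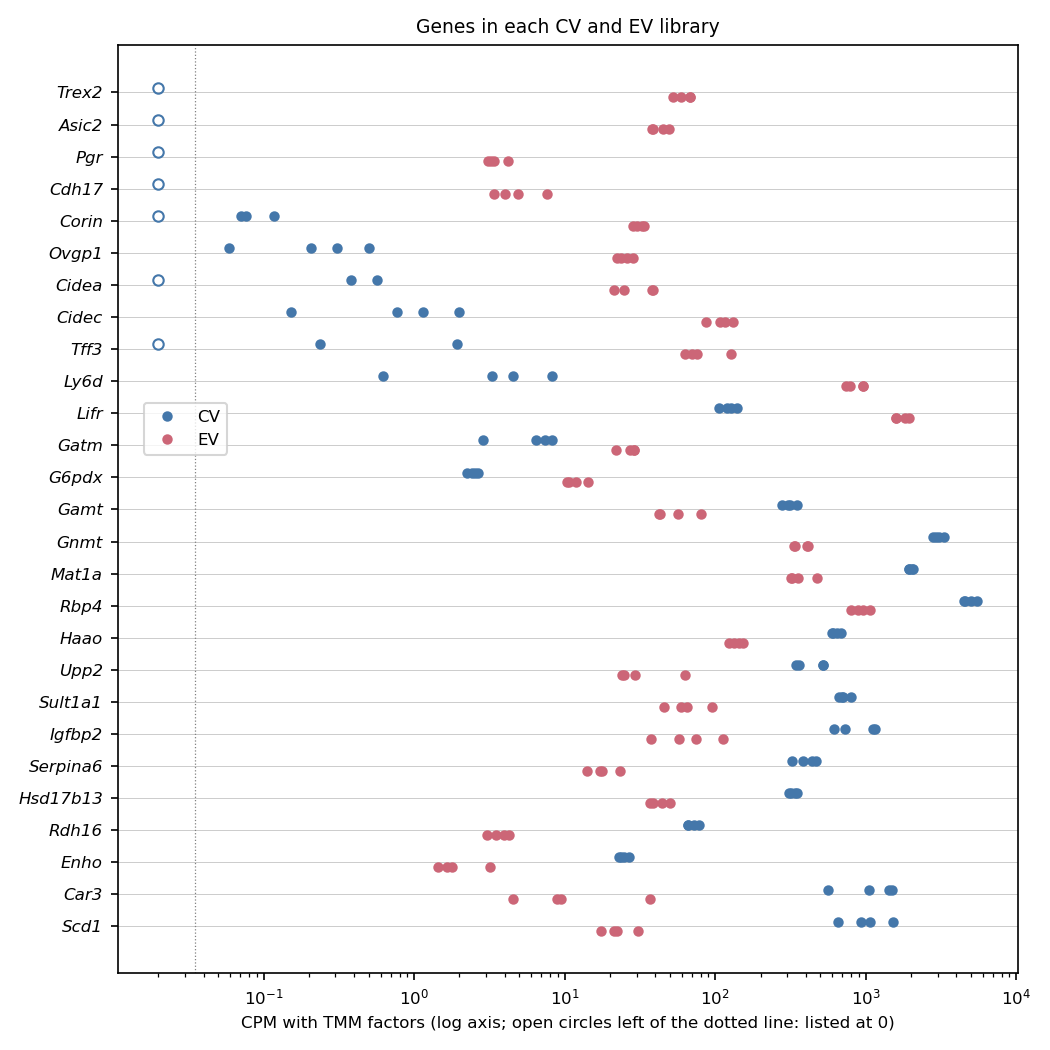
CPM on a log axis of 27 named genes in each CV (blue) and EV (red) library; open circles left of the dotted line are libraries in which the gene was listed at 0. The genes were drawn because their groups are apart, as they are for 47.3% of all tested genes; they run from Trex2, Asic2, Pgr and Cdh17, listed at 0 in all CV libraries, to Scd1, between 17.3 and 30.5 CPM in EV and between 650 and 1520 CPM in CV.

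Hormone handling was lower at several steps. Of 11 tested genes for thyroid hormone transport, activation and action, 0 rose and 9 fell, 7 of them at least 2-fold, and the median log2 change was -1.38 against 0.0 over all genes. The aromatic amino acid and thyroid hormone carrier Slc16a10 was at 54.4, 64.2, 54.7 and 60.5 CPM in the CV libraries and 9.09, 12.5, 15.8 and 12.9 CPM in the EV libraries. Dio1, the deiodinase that activates thyroxine, fell from 117 ± 12.4 to 41.8 ± 4.43 CPM; the iodide-salvaging Iyd fell from 111 ± 11.9 to 50.1 ± 3.78 CPM. Of the plasma carriers, Ttr fell from 6010 ± 1190 to 1890 ± 160 CPM and Serpina7 fell from 71.1 ± 26.9 to 27.2 ± 5.97 CPM. The receptor Thrb fell by less (-0.78), a call lost with library totals (adjusted p = 0.157). Thrsp, a thyroid-responsive lipogenic gene, fell from 633 ± 235 to 157 ± 55.3 CPM, a call lost with single libraries left out (highest adjusted p = 0.0805), without CV replicates 1 and 2 (adjusted p = 0.133) and with library totals (adjusted p = 0.0758). With library totals 6 of the 11 fell and 0 rose, 4 of them at least 2-fold.

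The next 2 genes, of glucocorticoid handling, were chosen after their values were seen. Serpina6, corticosteroid-binding globulin, which is also on the serpin list, stood at 322, 383, 468 and 437 CPM in the CV libraries and 17.6, 14, 23.2 and 17.1 CPM in the EV libraries. Hsd11b1, which regenerates active glucocorticoid inside hepatocytes, measured 495, 657, 636 and 579 CPM in the CV libraries and 83.4, 67.7, 87.4 and 73.2 CPM in the EV libraries. The groups were far apart for both, with log2 fold changes of -4.49 and -2.93 and adjusted p of 6.08e-09 and 4.86e-09.

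Retinoid genes fell in 13 of 25 cases and rose in 3, with 9 falls and 2 rises of at least 2-fold. Rbp4, the plasma carrier of retinol, was at 4470, 5480, 4970 and 4600 CPM in the CV libraries and 885, 803, 1060 and 962 CPM in the EV libraries. Rdh16, a retinol and steroid dehydrogenase, stood at 66, 65.9, 72.6 and 78 CPM in the CV libraries and 3.06, 3.94, 4.29 and 3.47 CPM in the EV libraries. Every EV value of both genes lay below every CV value, as the naming rule required. Rdh9, a relative of Rdh16, fell from 71.2 ± 22.6 to 12.1 ± 1.33 CPM. Cyp26a1, which clears retinoic acid, fell from 177 ± 80.6 to 53.4 ± 25.2 CPM, with overlapping groups, since CV replicate 1 lay inside the EV range. Dhrs9 (1.16 ± 0.393 to 4.07 ± 0.71 CPM) and the carotene-cleaving Bco1 (5.08 ± 0.848 to 11.2 ± 2.11 CPM) rose from low levels. With library totals 6 retinoid genes fell at least 2-fold.

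Sulfation genes outside the Sult2a family changed in both directions. Sult1a1, a phenol sulfotransferase, measured 700, 801, 706 and 664 CPM in the CV libraries and 59.3, 45.4, 94.6 and 65.4 CPM in the EV libraries, a log2 change of -3.44 ± 0.21 SE (adjusted p = 1.58e-08). The estrogen sulfotransferase gene Sult1e1 was not called (log2 change 1.98, adjusted p = 0.13). Sult1c2 fell from 6.03 ± 0.962 to 0.466 ± 0.137 CPM, whereas Sult3a2 rose from 11.1 ± 2.34 to 55.8 ± 11.4 CPM. The hepatic sulfate carrier Slc26a1 fell from 75.1 ± 13.4 to 16 ± 2.92 CPM, and Papss2, which makes the sulfate donor, fell from 189 ± 34.3 to 58.5 ± 7.39 CPM. In the opposite direction the second forms of both steps rose from low levels: Slc26a2 rose from 0.821 ± 0.143 to 3.66 ± 0.146 CPM and Papss1 rose from 5.85 ± 1.74 to 10.8 ± 1.01 CPM. In all, 5 of 18 members rose and 6 fell, all 6 at least 2-fold. With library totals 4 fell that far and 5 rose that far, against 2 rises with the composition factors.

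Secreted regulators of metabolism and growth fell more often than they rose, with 27 of 45 falling (20 at least 2-fold) and 5 rising (4 at least 2-fold); the median was -0.91. Igfbp2, an insulin-like growth factor binding protein, was at 612, 1150, 1120 and 728 CPM in the CV libraries and 37.3, 57.5, 113 and 74 CPM in the EV libraries. Enho, the precursor of adropin, stood at 24.6, 23.7, 26.8 and 23 CPM in the CV libraries and 1.44, 1.65, 3.2 and 1.79 CPM in the EV libraries. In both genes EV replicate 3 was the highest of its group and still below every CV library, as the naming rule required. Fgf1 (-2.70), the growth factor activator Hgfac (-2.62), the lipase inhibitor Angptl8 (-2.53), the chemerin gene Rarres2 (-2.24), Fetub (-2.13), Igfbp4 (-1.70) and Selenop (-1.27), the selenium carrier, were also lower. Igfbp1, which binds the same growth factors as Igfbp2, moved the other way and measured 308, 311, 237 and 206 CPM in the CV libraries and 833, 809, 717 and 1180 CPM in the EV libraries. Tsku, a secreted modulator of TGF beta signalling, rose from 153 ± 40 to 423 ± 36.1 CPM, and Nrg4, a ligand of the ErbB receptors, rose from 8.42 ± 2.85 to 22.1 ± 2.4 CPM. Fgf21 was not called (log2 change 1.20, adjusted p = 0.229). With library totals 13 members fell and 6 rose at least 2-fold.

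Serpins, the family of serine protease inhibitors and hormone carriers, changed in 26 of 30 cases, 15 down and 11 up, and 23 of these by at least 2-fold, 14 down and 9 up. Among the alpha-1-antitrypsin copies, Serpina1d fell from 3930 ± 369 to 539 ± 59.1 CPM, Serpina1b from 7060 ± 514 to 1800 ± 221 CPM and Serpina1a from 5150 ± 379 to 1760 ± 305 CPM, while Serpina1e rose from 91.4 ± 32 to 410 ± 95.5 CPM. These copies are near-identical and may have exchanged reads, and the Serpina1e call was lost without CV replicates 1 and 2 (adjusted p = 0.0678). Serpinb1a, an inhibitor of neutrophil proteases, fell from 34.2 ± 12.6 to 3.89 ± 1.21 CPM. Serpina12, which encodes the adipokine vaspin, rose from 2.3 ± 0.403 to 26.8 ± 2.85 CPM, and Serpina5, the protein C inhibitor, rose from 0.0382 ± 0.0764 to 3.23 ± 0.721 CPM. The antithrombin gene Serpinc1 (-1.81) and heparin cofactor gene Serpind1 (-1.57) fell. With library totals the 2-fold counts were 10 down and 10 up.

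**Figure D3:**
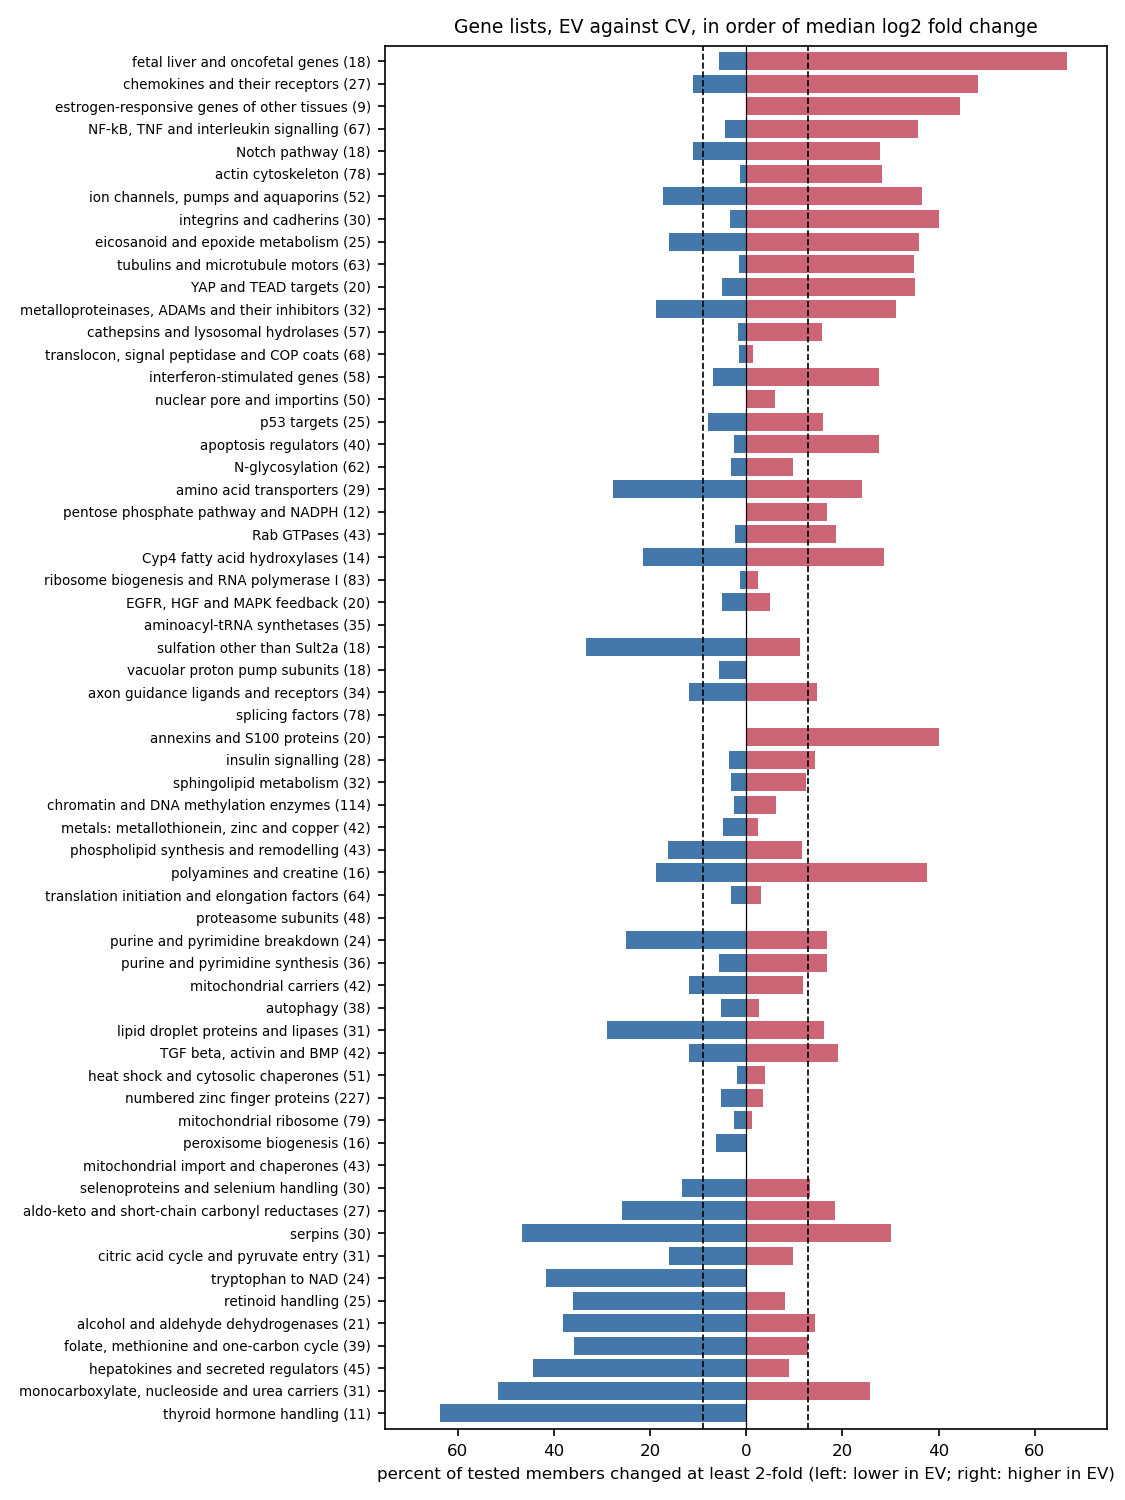
Percent of tested members (number in brackets) of each gene list that changed at least 2-fold at an adjusted p under 0.05, lower in EV to the left and higher in EV to the right, ordered by the median log2 fold change; dashed lines mark the shares over all tested genes, 8.98% lower and 12.9% higher. Thyroid hormone handling (7 of 11 lower) and fetal liver genes (12 of 18 tested higher, with 30 listed) lie at the ends.

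Enzymes of methionine, folate and glycine metabolism were among the abundant liver transcripts that fell. The methyl group cycle makes S-adenosylmethionine, uses it and recovers its products, and liver is a main site of it. Gnmt, which consumes S-adenosylmethionine to methylate glycine, was at 2800, 3320, 2910 and 3080 CPM in the CV libraries and 339, 334, 405 and 414 CPM in the EV libraries. Mat1a, the liver form of the synthase of S-adenosylmethionine, stood at 1950, 1940, 2020 and 2060 CPM in the CV libraries and 317, 322, 353 and 476 CPM in the EV libraries. Every EV value lay below every CV value in both genes, as the naming rule required. Of 39 members 24 fell, 14 at least 2-fold, with a median of -0.83, among them Ahcy (-1.66), Cth (-1.79), Sardh (-1.69), Pipox (-1.97), Shmt1 (-1.88) and the folate dehydrogenase Aldh1l1 (769 ± 53.1 to 143 ± 19.7 CPM). Bhmt, which remethylates homocysteine with betaine, fell too (-1.25), a call lost with library totals (adjusted p = 0.0622). The 10 rises included the mitochondrial Mthfd2 (1.24 ± 1.21 to 5.51 ± 1.32 CPM) and the serine-synthesis gene Psat1 (0.555 ± 0.477 to 5.61 ± 0.658 CPM). Folr2, a folate receptor known from macrophages, rose from 15.4 ± 5.22 to 66.8 ± 7.57 CPM. Mat2a and Mat2b, which form the synthase of growing and non-hepatic cells, rose by 0.34 and 0.29 on the log2 scale, calls that were not stable: both were lost without CV replicates 1 and 2 (adjusted p = 0.151 and 0.257), Mat2a without CV replicate 2, EV replicate 1 or EV replicate 3 (highest adjusted p = 0.0696), and Mat2b without any one library other than CV replicate 4 (highest adjusted p = 0.128). With library totals 17 members fell and 12 rose, 8 in each direction at least 2-fold.

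The route from tryptophan to NAD had 15 falls and 0 rises among 24 members, 10 of the falls at least 2-fold, with a median of -0.65. Tdo2, the first enzyme of the route, measured 736, 1340, 999 and 1070 CPM in the CV libraries and 213, 287, 295 and 304 CPM in the EV libraries. Haao, which makes the quinolinate precursor, was at 641, 686, 593 and 610 CPM in the CV libraries and 133, 124, 144 and 153 CPM in the EV libraries. The levels of the EV libraries lay within 124 to 153 CPM for Haao and, as the naming rule required, below every CV library. Afmid (-2.15), Aadat (-2.10), the nicotinate entry enzyme Naprt (-1.14), the riboside kinase Nmrk1 (-1.5), the nicotinamide methyltransferase Nnmt (-1.61) and the NAD-dependent deacylase Sirt3 (-1.58) fell too. Kynu (0.11) and the salvage enzyme Nampt (-0.42) did not pass. With library totals 10 members fell and 5 rose, with 8 falls and 1 rise of at least 2-fold.

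**Figure D4:**
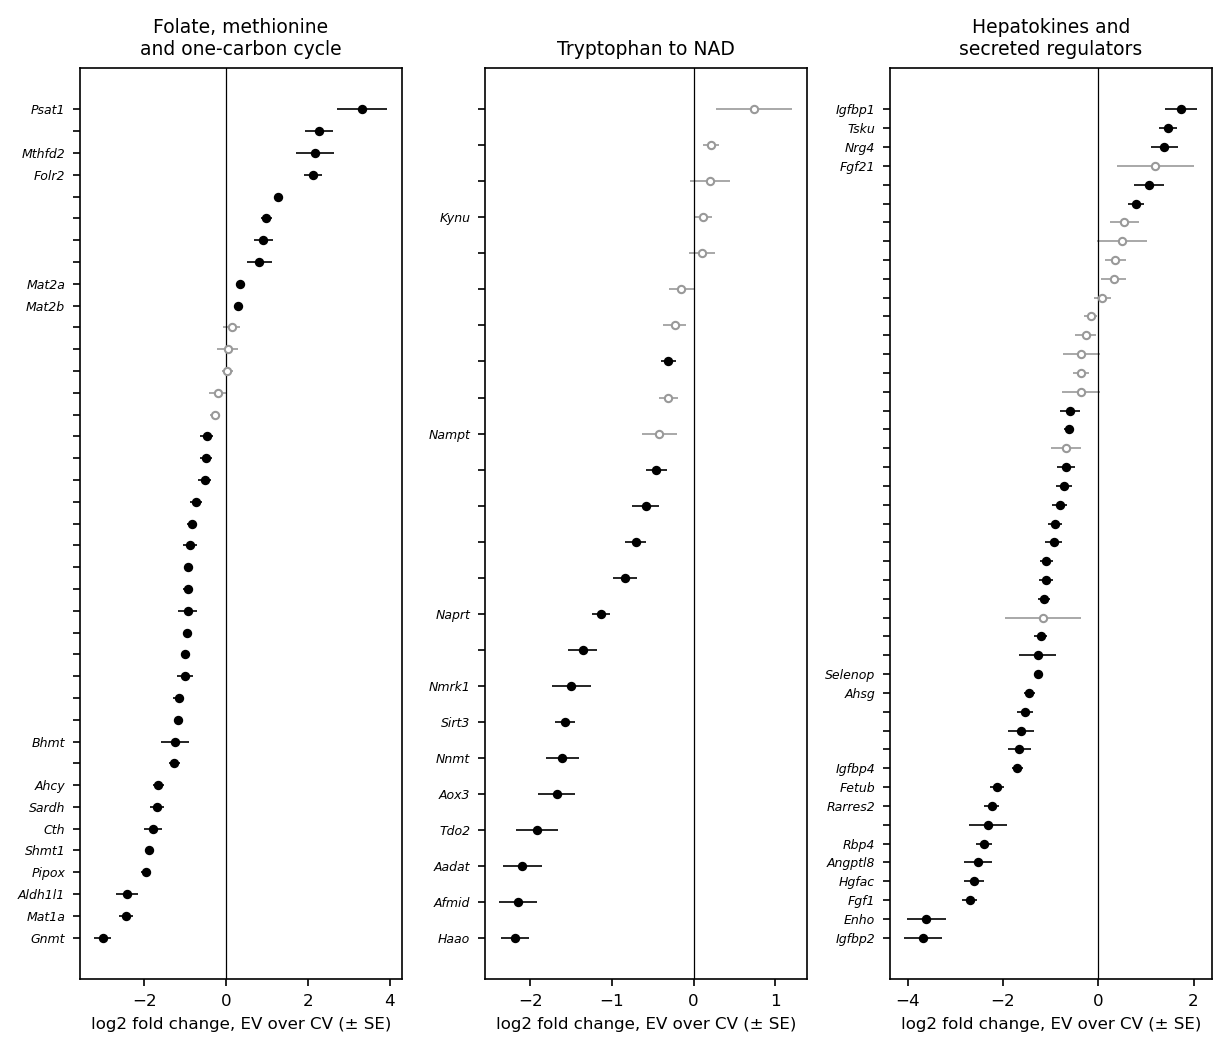
Log2 fold change (EV over CV, ± SE) of every tested member of 3 lists: one-carbon metabolism (39 genes), tryptophan to NAD (24) and secreted regulators (45); filled points passed an adjusted p under 0.05, and names stand beside the genes described in the text. The falls run to -3.02 for Gnmt, -2.19 for Haao and -3.68 for Igfbp2, and the rises to 3.33 for Psat1 and 1.74 for Igfbp1; with library totals the median of all genes shifts by 0.49.

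Creatine synthesis takes place in 2 steps, and their genes moved apart. Gatm, the first step, which is active mainly in kidney, stood at 2.85, 7.41, 8.25 and 6.43 CPM in the CV libraries and 28.9, 27.3, 22 and 29 CPM in the EV libraries. Gamt, the second step, which is active in liver, measured 276, 316, 352 and 305 CPM in the CV libraries and 43.2, 56.7, 80.2 and 42.1 CPM in the EV libraries. Neither pair of groups overlapped, as the naming rule required, and the log2 changes were 2.10 and -2.49. The brain-type creatine kinase Ckb (1.69) and the creatine carrier Slc6a8 (1.15) rose, as did the polyamine genes Smox (1.86), Srm (1.03) and Sat1 (1.09), while Paox (-1.56) and Agmat (-1.53) fell. Over creatine and polyamine genes 6 of 16 rose and 7 fell, with 6 rises and 3 falls of at least 2-fold, and those last counts were the same with library totals.

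Genes of purine and pyrimidine breakdown gave 10 falls, 4 rises and 10 that did not pass among 24, with a median of -0.08, against 7 falls and 13 rises with library totals. Upp2, a uridine phosphorylase of liver, was at 345, 520, 362 and 519 CPM in the CV libraries and 24.6, 29.3, 62.7 and 24.1 CPM in the EV libraries. Of the other enzymes of the route, Dpyd (-1.27), Dpys (-2.34) and Upb1 (-1.62), all fell, as did Agxt2 (-1.89) and the aldehyde oxidase Aox3 (-1.68). Over the list 6 falls and 4 rises reached 2-fold; these rises were 2 without EV replicate 1 or without CV replicates 1 and 2. Of 36 synthesis genes 10 rose and 9 fell (20 and 2 with library totals). Over all tested genes 25.5% rose and 24.9% fell (54.6% and 10.3% with library totals), so this list lay near the background. Dck (2.12), Impdh1 (1.67) and Ctps (1.40) were among the 6 that rose at least 2-fold. In the pentose phosphate pathway both NADPH-producing dehydrogenases rose: G6pdx stood at 2.42, 2.67, 2.54 and 2.24 CPM in the CV libraries and 11.8, 14.3, 10.4 and 10.7 CPM in the EV libraries, and Pgd rose from 31.1 ± 4.23 to 87.6 ± 8.45 CPM. The remaining 10 members of that list changed by less than 2-fold or did not pass, with Taldo1 at 0.42.

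The citric acid cycle and its pyruvate entry gave 24 falls and 4 rises among 31 genes with the composition factors, 5 falls and 3 rises of at least 2-fold. With library totals 10 fell and 7 rose, so most of these falls depend on the scaling. The kinases that switch off pyruvate dehydrogenase moved apart: Pdk4 measured 5.27, 5.27, 7.9 and 2.95 CPM in the CV libraries and 19.2, 40.1, 47.8 and 58 CPM in the EV libraries, while Pdk1 fell from 47.2 ± 9.03 to 14.5 ± 2.93 CPM and Pdk2 fell from 81.2 ± 11.4 to 25.6 ± 3.67 CPM. The phosphatase gene Pdp1 (2.76) and the malic enzyme gene Me2 (2.59) rose from low levels. Among mitochondrial carriers Slc25a36, a pyrimidine nucleotide carrier, was at 1.42, 1.68, 2.2 and 1.47 CPM in the CV libraries and 37.9, 33.7, 43.8 and 9.19 CPM in the EV libraries, with EV replicate 4 well below the other EV libraries. Ucp2 (1.65) and the ATP-magnesium carrier Slc25a24 (1.67) rose, and both subunits of the pyruvate carrier, Mpc1 (-1.24) and Mpc2 (-1.31), fell, as did the aspartate-glutamate carrier Slc25a13 (-1.71).

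Other oxidoreductases changed in both directions. Of 21 alcohol and aldehyde dehydrogenases 13 fell, 8 at least 2-fold, and 3 rose. Aldh1b1 fell from 65.6 ± 11.7 to 9.12 ± 1.89 CPM, and the acetaldehyde-oxidising Aldh2 fell from 3600 ± 200 to 1100 ± 60.4 CPM. Adh1 fell by less (-0.55), a call lost with library totals (adjusted p = 0.649). Aldh3b1 (2.51) and Aldh18a1 (2.33), a proline-synthesis enzyme, rose. With library totals 4 of the 21 fell at least 2-fold. Among 27 aldo-keto and carbonyl reductases, 7 rose and 15 fell, against 9 and 10 with library totals. Akr1c18, the 20-alpha-hydroxysteroid dehydrogenase that inactivates progesterone in ovary, stood at 0.285, 0.535, 0 and 0 CPM in the CV libraries and 11.8, 9.34, 7.91 and 7.41 CPM in the EV libraries, while its relatives Akr1c20 (-2.06), Akr1c6 (-1.66) and Akr1c19 (-1.25) and the aldose reductase-like Akr1b7 (-3.12) fell. Cbr3, a carbonyl reductase, rose from 0.861 ± 0.789 to 5.65 ± 1.68 CPM. The Akr1c genes are close copies of one another, so reads may be misassigned among them. In the Cyp4 group of 14 fatty acid hydroxylases 5 rose and 5 fell, against 7 and 4 with library totals. Cyp4a12a rose from 0.127 ± 0.133 to 8.05 ± 4.56 CPM and its close copy Cyp4a12b rose from 0.144 ± 0.114 to 2.64 ± 1.51 CPM, with reads that cannot be divided with certainty. Of the same group Cyp4f14 (-2.73) and Cyp4f15 (-2.36) fell, and Cyp4f16 (1.88) and Cyp4f18 (2.35) rose.

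Genes of the lipid droplet moved in both directions. The CIDE proteins fuse droplets: Cidea and Cidec are the forms of fat and fatty liver, and Cideb is the form of normal liver. Cidea measured 0.569, 0.382, 0 and 0 CPM in the CV libraries and 24.7, 38.4, 37.9 and 21.1 CPM in the EV libraries, and Cidec was at 1.14, 0.153, 1.99 and 0.766 CPM in the CV libraries and 87.3, 132, 116 and 107 CPM in the EV libraries. Cideb fell from 266 ± 12.3 to 109 ± 11.7 CPM. Thus 2 members of the family rose and 1 fell, with log2 changes of 7.04, 6.75 and -1.29. The coat protein gene Plin2 rose from 209 ± 60.6 to 696 ± 34.2 CPM, and Hilpda, an inhibitor of lipolysis, rose from 3.21 ± 1.87 to 10.8 ± 1.97 CPM. Hsd17b13, a droplet enzyme of hepatocytes, stood at 351, 318, 340 and 308 CPM in the CV libraries and 44.6, 38.4, 49.8 and 36.8 CPM in the EV libraries, and hepatic lipase, Lipc, fell from 198 ± 34.4 to 26.8 ± 6.18 CPM. Dgat2 (-1.26) and Aadac (-1.35) fell as well. Over all 31 genes 9 rose and 11 fell (14 and 9 with library totals), with 5 rises and 9 falls of at least 2-fold, and with library totals the falls that large numbered 4.

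Eicosanoid genes rose in 12 of 25 cases and fell in 7, with 9 rises and 4 falls of at least 2-fold. Ptgds, a prostaglandin D synthase, measured 6.12, 13.6, 5.77 and 11.3 CPM in the CV libraries and 124, 141, 155 and 87.4 CPM in the EV libraries. The prostacyclin synthase Ptgis (1.89 ± 0.417 to 11.5 ± 3.07 CPM), the cyclooxygenase Ptgs1 (6.9 ± 2.2 to 37.5 ± 6.72 CPM), the thromboxane synthase Tbxas1 (2.18 ± 0.803 to 11.4 ± 1.47 CPM) and the leukotriene genes Alox5ap (4.48 ± 2.38 to 41.2 ± 5.52 CPM) and Ltc4s (0.668 ± 0.589 to 8.21 ± 1.36 CPM) rose. Several of these are known from macrophages and endothelium, and the summed macrophage markers rose in the same libraries, from 410 to 1020 CPM in CV to 2460 to 2860 CPM in EV; their part in these changes was not tested. The hepatocyte epoxygenase Cyp2j5 (-1.39) and the epoxide hydrolase Ephx2 (-0.87) fell. Among sphingolipid genes the neutral sphingomyelinase Smpd3 (0.352 ± 0.145 to 6.15 ± 1.44 CPM), the ceramide kinase Cerk (2.25 ± 0.494 to 12.9 ± 1.54 CPM) and the first-step subunit Sptlc2 (17.1 ± 2.26 to 42.7 ± 2.76 CPM) rose; the list as a whole had 9 rises and 10 falls among 32 (19 and 3 with library totals). Of 43 phospholipid genes 13 rose and 14 fell (24 and 7 with library totals), with the acyltransferase Lpcat4 (2.42) and Gpat3 (1.82) among the rises. Over all tested genes 25.5% rose and 24.9% fell (54.6% and 10.3% with library totals).

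Carriers of small metabolites fell in 19 of 31 cases, 16 at least 2-fold, and rose in 9, with a median of -1.06. The monocarboxylate carrier Slc16a5 fell from 49.9 ± 21.7 to 5.68 ± 1.92 CPM, Slc16a7 fell from 46.4 ± 4.93 to 9.25 ± 1.7 CPM, the thiamine carrier Slc19a2 fell from 66.4 ± 7.65 to 22.1 ± 3.1 CPM, and the urate carrier Slc2a9 fell from 27.1 ± 4.45 to 8.68 ± 1.54 CPM. The glucose carrier of hepatocytes, Slc2a2, was at 168, 190, 198 and 236 CPM in the CV libraries and 18.9, 31.8, 43.2 and 28.3 CPM in the EV libraries. All EV libraries lay below all CV libraries for Slc2a2, as the naming rule required. In contrast the monocarboxylate carriers of most other tissues, Slc16a1 (1.49) and Slc16a3 (1.86), and the nucleoside carrier Slc28a2 (2.68) rose; without CV replicates 1 and 2 the Slc16a3 call was lost (adjusted p = 0.09). With library totals 9 fell at least 2-fold. Amino acid carriers divided, with 10 rises and 12 falls among 29 (14 and 8 with library totals): Slc7a7 rose from 2.37 ± 0.577 to 19.7 ± 2.56 CPM and Slc7a8 rose from 2.19 ± 0.42 to 11.5 ± 0.45 CPM, while the glutamate carrier Slc1a2 fell from 56.8 ± 13.7 to 11.8 ± 2.14 CPM and Slc43a1 fell from 7.18 ± 2.33 to 1.35 ± 0.358 CPM. Of 52 channels, pumps and aquaporins 28 rose and 11 fell, 19 and 9 of them at least 2-fold. The calcium pump Atp2a3 rose from 0.813 ± 0.368 to 13.3 ± 2.19 CPM, the potassium channel Kcnt2 rose from 0.171 ± 0.181 to 8.28 ± 1.22 CPM, the sodium channel Scn8a rose from 0.825 ± 0.495 to 6.57 ± 1.56 CPM, and the oxidant-gated cation channel Trpm2 rose from 2.79 ± 1 to 19.1 ± 3.99 CPM. The water channels moved apart, Aqp8 up (1.45) and Aqp9, the glycerol channel of hepatocytes, down (-1.49), and the sodium pump subunit Atp1b1 fell (-2.43). The Aqp8 call was lost without CV replicates 1 and 2 (adjusted p = 0.0596).

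Zinc and copper genes mostly moved by little. Metallothionein gene Mt1 stood at 5480, 2220, 2970 and 2970 CPM in the CV libraries and 931, 523, 1270 and 984 CPM in the EV libraries. Of 42 zinc and copper genes 11 rose and 13 fell, 1 and 2 of them at least 2-fold (1 and 4 without CV replicate 2). Over all tested genes 25.5% rose and 24.9% fell. With library totals 22 of the 42 rose and 4 fell. CV replicate 1 had the highest Mt1 level. Of 30 selenium genes 8 rose and 15 fell, with a median of -0.38, against 13 and 8 with library totals. Among them the gut glutathione peroxidase Gpx2 rose from 0.0534 ± 0.107 to 2.66 ± 1.33 CPM, the synthetase Sephs2 fell from 690 ± 70.2 to 201 ± 10.1 CPM and Gpx3 rose from 11 ± 2.09 to 39 ± 1.48 CPM, and Selenbp2, a selenium-binding protein whose reads may be shared with its close copy Selenbp1 (-0.96), rose from 7.61 ± 1.2 to 68.4 ± 31 CPM.

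Of 30 genes on a list of fetal liver and liver tumour markers 18 were tested, of which 12 rose, all at least 2-fold, and 1 fell. A member almost silent in CV could pass the filter only through other groups, which favours rises among such members. The fetal transcript H19 leaned the other way without passing (-2.36, adjusted p = 0.0547). Ly6d, a membrane protein known from lymphoid progenitors, measured 8.26, 4.51, 0.619 and 3.3 CPM in the CV libraries and 954, 790, 952 and 741 CPM in the EV libraries. Tspan8, a tetraspanin, was at 0.641, 1.22, 1.65 and 1.59 CPM in the CV libraries and 48.3, 41.7, 63.6 and 52.9 CPM in the EV libraries. Afp, alpha-fetoprotein, rose from 0.14 ± 0.144 to 3.7 ± 1.4 CPM, the imprinted gene Peg3 rose from 1.58 ± 0.232 to 18.3 ± 4.09 CPM, and the fetal pyruvate kinase Pkm rose from 12 ± 4.02 to 55.2 ± 8.93 CPM. Afp thus stayed low in EV, whereas Ly6d reached 741 to 954 CPM. Without CV replicates 1 and 2, 9 of the 18 rose at least 2-fold. Among 20 genes of the YAP and TEAD pathway, a list of targets together with the factors and their regulators, 9 rose and 2 fell. The rises included the receptor kinase Axl (9.26 ± 2.85 to 56.6 ± 7.44 CPM), Crim1 (3.45 ± 0.677 to 27.4 ± 6.33 CPM) and Ccn1 (9.98 ± 5.88 to 47.6 ± 13.2 CPM). In the Notch pathway the ligand Dll1 fell from 6.86 ± 1.87 to 1.02 ± 0.648 CPM and Hes6 fell from 50.2 ± 18.9 to 14.6 ± 1.84 CPM, and 5 of 18 genes rose at least 2-fold, or 2 without CV replicate 1. The fringe glycosyltransferase Lfng rose (1.71). The growth factor Tgfb1 rose from 6.79 ± 2.51 to 28.3 ± 3.51 CPM, the activin subunit Inhbb rose from 0.79 ± 0.243 to 3.96 ± 0.882 CPM, the activin antagonist Fst rose from 1.41 ± 0.626 to 5.56 ± 2.83 CPM and the BMP modulator Bmper rose from 1.4 ± 0.598 to 7.18 ± 1.03 CPM. Of the 42 genes of the TGF beta, activin and BMP list 14 rose and 12 fell, against 19 and 2 with library totals; of the falls 5 reached 2-fold, or 2 without CV replicate 3. Of 25 p53 targets 11 rose and 5 fell, 4 and 2 of them at least 2-fold, with a median of 0.19. Over all tested genes 12.9% rose and 8.98% fell that far, so this list lay near the background. The 2-fold changes included rises of Ddit4l (3.08) and the death-promoting Pmaip1 (2.64) and a fall of Ei24 (-1.17). The cell cycle inhibitor Cdkn1a, of the same list, stood at 15.1, 8.17, 13.9 and 8.08 CPM in the CV libraries. In the EV libraries Cdkn1a measured 119, 94.5, 104 and 113 CPM. The groups did not overlap. Apoptosis regulators rose in 19 of 40 cases and fell in 6, 11 and 1 of them at least 2-fold, among them the necroptosis kinase Ripk3 (1.95 ± 1.29 to 8.13 ± 0.806 CPM), Bcl2a1a (0.717 ± 0.391 to 3.06 ± 1.07 CPM), which has close copies, and Birc5 (0.559 ± 0.136 to 11.1 ± 2.27 CPM), which is also a mitotic gene. In insulin signalling 7 of 28 genes rose and 8 fell, near the shares over all tested genes (25.5% and 24.9%). With library totals 15 rose and 2 fell, against 54.6% and 10.3% of all tested genes. Rises of at least 2-fold numbered 4 (14.3%, against 12.9% of all tested genes), or 2 without CV replicate 1. Single members were the phosphatase gene Ptpn1 at 1.55 and the adaptor gene Grb10 at 1.49. Foxo3, a transcription factor that insulin keeps out of the nucleus, fell (-1.12). In the list of growth factor feedback genes Spry4 (-1.87) and the hepatocyte growth factor receptor Met (-0.90) fell, and Etv5 rose (1.32), with 4 rises and 6 falls among 20, or 10 and 2 with library totals.

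Structural genes rose more often than they fell in most lists. With library totals 62 actin genes rose and 2 fell. That scaling called 54.6% of all tested genes higher and 10.3% lower, so it gives the rises no separate support. Of 78 actin cytoskeleton genes 51 rose and 7 fell, 22 and 1 of them at least 2-fold, with a median of 0.61; of 63 tubulin and motor genes 31 rose and 6 fell, 22 and 1 of them at least 2-fold. Tppp3, a tubulin-binding protein, rose from 0.479 ± 0.283 to 18.7 ± 4.76 CPM. The mitotic kinesins Kif15 (4.67), Kif22 (3.87) and Kif20b (3.83) rose from low levels. The nonmuscle myosin Myh14 rose from 10.3 ± 1.82 to 77.8 ± 16.6 CPM, the membrane linker Msn rose from 12.1 ± 4.82 to 52.5 ± 3.64 CPM, the annexin Anxa5 measured 66.5, 74.6, 60.7 and 75.4 CPM in the CV libraries and 382, 334, 326 and 304 CPM in the EV libraries, and S100a11 rose from 19.2 ± 3.86 to 115 ± 25.7 CPM. Cdh17, the liver-intestine cadherin, was listed at 0 in all 4 CV libraries and measured 7.66, 3.4, 4.89 and 4.04 CPM in the EV libraries. Itga2, a collagen-binding integrin, rose from 0.0319 ± 0.0371 to 7.37 ± 3.23 CPM, and the leukocyte integrin Itgam rose from 0.696 ± 0.331 to 10.4 ± 1.39 CPM. Ephb2, an ephrin receptor, rose from 0.0645 ± 0.0486 to 4.68 ± 0.303 CPM, and the semaphorin genes Sema6d (1.94) and Sema4c (1.67) rose. Their guidance list held 10 rises and 7 falls among 34 (17 and 4 with library totals), against 25.5% and 24.9% of all tested genes. Among proteases Adamts2, which trims procollagen, rose from 1.4 ± 0.842 to 34 ± 3.33 CPM, the collagenase Mmp13 rose from 0.0822 ± 0.0628 to 2.58 ± 0.441 CPM, Adam19 rose from 0.425 ± 0.24 to 8.32 ± 2.57 CPM, and Adam11 fell from 7.51 ± 3.53 to 0.374 ± 0.248 CPM. Lysosomal hydrolases rose in 29 of 57 cases and fell in 13, including Ctss (50.7 ± 13.4 to 275 ± 29.1 CPM), Lgmn (51.9 ± 9.63 to 207 ± 23.4 CPM) and Arsa (10.8 ± 1.88 to 55.9 ± 5.32 CPM), the last an enzyme of sulfatide breakdown. The cathepsin Ctse of stomach and immune cells rose from 0.187 ± 0.153 to 3.39 ± 0.476 CPM. Among 43 Rab GTPases of membrane traffic 18 rose and 5 fell, with Rab44 (0.155 ± 0.309 to 23.1 ± 4.65 CPM), a large form known from granule release, and the secretory Rab3b (0.374 ± 0.441 to 5.87 ± 2.1 CPM) at the top. Of 18 subunits of the vacuolar proton pump 3 rose and 1 fell, and that one, the osteoclast and macrophage subunit Atp6v0d2, fell from 14.6 ± 5.12 to 0.751 ± 0.357 CPM. Autophagy genes rose in 10 of 38 cases and fell in 15 with the composition factors, and rose in 23 and fell in 3 with library totals; Gabarapl1 fell (-1.22) and Wipi1 rose (1.19) under both. Of 16 stellate cell and fibroblast markers 5 rose and 4 fell (with summed levels of 403 to 693 CPM in CV and 340 to 359 CPM in EV). Col1a1, the main fibrillar collagen gene, rose (1.48) and Ecm1 fell (-1.45). Of 15 listed cholangiocyte markers 9 were tested, and they summed to 64.3 to 87.0 CPM in CV and 166 to 242 CPM in EV. Sox9 (3.67) and Spp1 (1.84) were among the 4 that rose, and Onecut1 (-2.63) was the 1 that fell. The other 4 did not pass, among them Epcam (-0.26, adjusted p = 0.396). The part of these cells in the structural changes was not tested.

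Several immune gene families rose. A gene almost silent in CV could pass the filter on low counts only through other groups. That favours rises among the tested genes of these families and of the immune lists that follow. Of 212 families of symbols with the same stem and at least 8 tested members, the highest shares of 2-fold rises were those of Ifi (13 of 16), Tlr (8 of 10), Rgs (7 of 10), the Ms4a stem (6 of 9), Cd (36 of 59), Clec (10 of 18) and the DNA replication helicase stem Mcm (5 of 9), the last 2 at 55.6% each. Among the interferon-inducible Ifi genes Ifi205 rose from 1.01 ± 0.522 to 8.96 ± 1.91 CPM and Ifi211 rose from 2.65 ± 0.782 to 16.8 ± 3.06 CPM. The endosomal Toll-like receptors Tlr7 rose from 0.985 ± 0.107 to 8.59 ± 0.925 CPM, Tlr8 rose from 0.614 ± 0.269 to 4.16 ± 1.03 CPM and Tlr13 rose from 0.634 ± 0.495 to 5.68 ± 0.482 CPM. Interferon-stimulated genes divided: 24 of 58 rose, 16 at least 2-fold, among them Oas3 (0.667 ± 0.214 to 6.82 ± 1.05 CPM), Oas2 (2.24) and Mx1 (2.22), and 11 fell, among them Ifi27 (-1.23), Mx2 (-1.20) and Igtp (-0.89). With library totals 23 of the 58 rose and 0 fell at least 2-fold. Of 27 chemokine genes 15 rose and 3 fell: Cxcl1 was at 20.6, 7.64, 2.34 and 13 CPM in the CV libraries and 87.5, 49.2, 79.8 and 125 CPM in the EV libraries. Its close relative Cxcl2 stood at 0, 0, 0.756 and 0 CPM in the CV libraries and 2.37, 1.99, 12 and 2.99 CPM in the EV libraries. CV replicate 3 had the lowest Cxcl1 level, and no library overlapped in either gene, which the naming rule required of Cxcl2. The eosinophil attractant Ccl24 rose from 2.17 ± 1.36 to 23.1 ± 7.63 CPM, Ccl6 rose from 15.3 ± 2.85 to 114 ± 24.5 CPM and the receptors Ccr1 rose from 0.181 ± 0.138 to 2.25 ± 0.411 CPM, Cx3cr1 rose from 0.612 ± 0.136 to 6.9 ± 2.14 CPM and Ccr2 rose from 0.624 ± 0.181 to 4.06 ± 0.928 CPM, against falls of Ccl9 (-1.19) and Ccl27a (-1.77). Of 67 genes of NF-kB, TNF and interleukin signalling 33 rose and 10 fell, 24 and 3 of them at least 2-fold, including the inflammasome sensor Nlrp3 (0.479 ± 0.464 to 3.65 ± 0.586 CPM), Tlr2 (1.31 ± 0.41 to 7.36 ± 2.24 CPM) and the RANK receptor gene Tnfrsf11a (0.433 ± 0.157 to 3.09 ± 0.552 CPM). Among the other families Ms4a4a (4.54), Cd300e (3.72), the lipopolysaccharide co-receptor Cd14 (3.48), the hyaluronan receptor Cd44 (2.94), Clec4a3 (2.90) and Clec4a2 (2.88) rose. In the Rgs family Rgs7, a regulator of G protein signalling known from neurons whose anchor is Rgs7bp, measured 0.142, 0, 0.206 and 0.413 CPM in the CV libraries and 12.2, 8.07, 8.33 and 8.19 CPM in the EV libraries. Both genes of that pair were therefore near 0 in CV and above it in every EV library.

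The cell markers moved in the same libraries as these families. Of 18 macrophage markers 16 rose and 0 fell, among them Fcgr1 (2.90), from a sum of 410 to 1020 CPM in CV to 2460 to 2860 CPM in EV. Of 17 listed T, B and NK cell markers 11 were tested and 5 rose, from a sum of 25.7 to 40.4 CPM in CV to 80.4 to 122 CPM in EV. This sum includes Ptprc, a gene of leukocytes in general, so it is not of lymphoid cells alone. For markers almost silent in CV the filter favours rises here too. Of 14 endothelial markers 7 rose, among them Lyve1 (1.65) and Cdh5 (1.83), from a sum of 164 to 341 CPM in CV to 376 to 424 CPM in EV. CV replicate 1 had the lowest sum of each of these 3 lists. The 7 red cell markers summed to 997 to 1980 CPM in CV and 2550 to 3480 CPM in EV. The part of these cells in the immune families was not tested.

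The families with the highest share of 2-fold falls were enzymes: Sult (13 of 17), Ces (9 of 12), Hsd (8 of 12), Rdh (6 of 9), Cyp (36 of 66) and Ugt (8 of 17). The carboxylesterase Ces1c, which is secreted into mouse plasma, was at 3950, 4270, 4220 and 4070 CPM in the CV libraries and 499, 437, 630 and 382 CPM in the EV libraries. Ces1d fell from 881 ± 86.9 to 65.3 ± 15.8 CPM. Not all members followed: Ugt2b38 (0.133 ± 0.125 to 5.59 ± 2.82 CPM), Ugt2b37 (0.971 ± 0.225 to 7.59 ± 3.52 CPM) and Cyp7b1 (6.17) rose.

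The machinery that makes and breaks protein changed by small amounts that depend on the scaling. No gene of the proteasome (48 genes), the aminoacyl-tRNA synthetases (35), the splicing factors (78) or mitochondrial import (43) changed 2-fold with the composition factors. The median was -0.07 for the proteasome and -0.28 for mitochondrial import, and with library totals it turned to 0.42 and 0.2. Mitochondrial ribosome genes gave 32 falls and 5 rises among 79 with the factors, and 2 falls and 44 rises with library totals. One gene of that list stood out in both: Mrps18a stood at 45.5, 42.6, 41.4 and 43.4 CPM in the CV libraries and 221, 157, 169 and 148 CPM in the EV libraries. Proteins of the translocon and the vesicle coats of the early secretory route rose in 36 of 68 cases and fell in 8, with a median of 0.29, and Ssr1 rose most (1.21) while the others called as higher changed by less than 2-fold. With library totals 58 rose and 4 fell. Nuclear pore and importin genes gave 18 rises and 0 falls among 50, and 32 did not pass; Nup210 (1.34) and Nup93 (1.14) rose most. N-glycosylation genes gave 24 rises and 12 falls among 62: Alg14, which adds the second sugar of the lipid-linked glycan, rose from 21.5 ± 4.63 to 77.8 ± 14.4 CPM, Pgm3 (1.38) and Nans (1.31), which make amino sugars and sialic acid, rose, and the sialyltransferase St6gal1 fell (-1.23). With library totals 47 of these rose and 3 fell. Ribosome biogenesis genes rose in 25 of 83 cases and fell in 7, with Myc, a regulator of growth counted in that list, at 1.24. Among 64 translation factors Eif4g3 rose (1.32) and Eif1 fell (-1.07), and 42 did not pass; with library totals 47 rose and 2 fell.

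Among nuclear proteins changes of 2-fold were few. Of 114 chromatin and DNA methylation enzymes 25 rose and 24 fell, 7 and 3 of them at least 2-fold. Over all tested genes 25.5% rose and 24.9% fell. With library totals 65 of these enzymes rose and 5 fell, 13 and 1 at least 2-fold. Uhrf1, which keeps up DNA methylation at replication, measured 0.0712, 0.306, 0.137 and 0.236 CPM in the CV libraries and 5.61, 6.32, 4.41 and 3.83 CPM in the EV libraries. Hdac9, a class IIa histone deacetylase, rose from 0.172 ± 0.0723 to 2.25 ± 0.623 CPM. Neither gene overlapped between groups, as the naming rule required. Of 227 numbered zinc finger genes 21 rose and 47 fell with the composition factors, and 78 rose and 10 fell with library totals. Zfp395 fell from 28.1 ± 9.04 to 5.17 ± 1.22 CPM and Zfp608 rose from 0.563 ± 0.215 to 2.34 ± 0.536 CPM kept their calls with both scalings.

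EE was also given to mice that received MI763F, and EM and CM share no library with EV and CV. Of the 2827 genes called at least 2-fold in EV against CV, 98.4% had the same sign in EM against CM and 80.4% were also called there with that sign, against 38.1% of all tested genes called in EM against CM. 0 were called with the opposite sign. Lifr changed by 3.82 without and 3.86 with MI763F on the log2 scale, Cidea by 7.04 and 7.78, Serpina6 by -4.49 and -2.89, Igfbp2 by -3.68 and -2.48, Gnmt by -3.02 and -1.84, and Rbp4 by -2.40 and -1.48. Cdkn1a (3.25 and 0.94, adjusted p = 0.194 in EM against CM), Pdk4 (2.95 and 0.30, adjusted p = 0.722) and Ccn1 (2.25 and 0.23, adjusted p = 0.699) passed in EV against CV and not in EM against CM, and the difference between the comparisons did not pass for any of the 3 (adjusted p = 0.205, 0.173 and 0.155). Over all genes that difference was called for 17 of 12918 (0.132%).

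**Figure D5:**
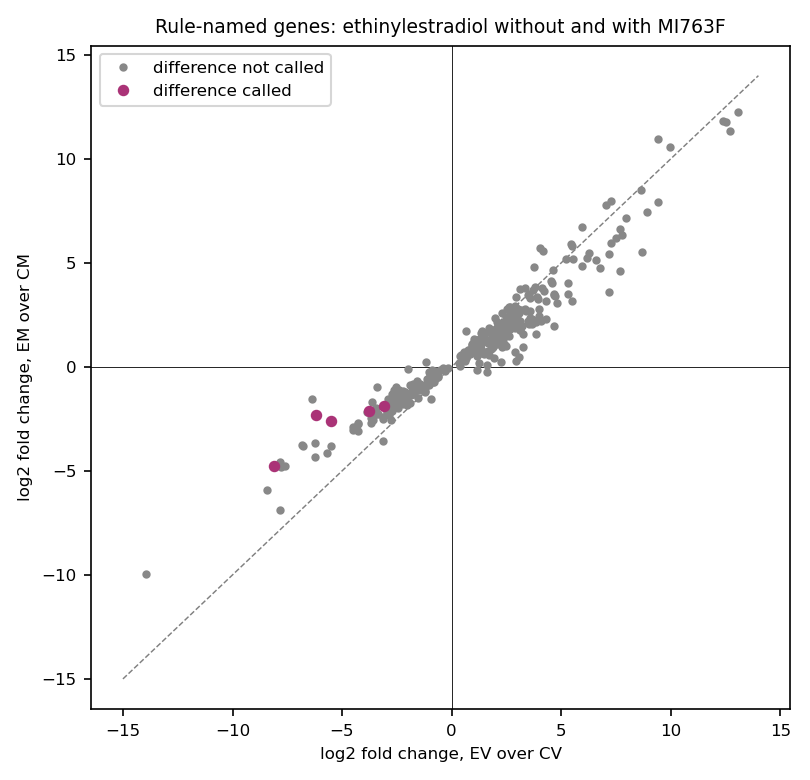
Log2 fold change of EM over CM against that of EV over CV for the 352 genes that the naming rule picked by their change in EV over CV; the dashed line marks equal change, and purple points are the 5 genes whose difference passed an adjusted p under 0.05. Of the points, 349 have the same sign on both axes.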

How the data were processed

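The libraries were poly(A) RNA-seq of mouse liver made with NEBNext Ultra reagents, per the labels' protocols. The authors deposited 1 table of estimated counts per gene, as whole numbers; STAR, Salmon and build GRCm39 are named in the submitters' processing notes, and versions, roles, annotation and strandedness are not given in these sources. Among 605 genes that were at 0 in some library and had an exon length, the smallest nonzero value had a median of 101.5 for genes of up to 150 bases and of 1 for genes over 4000 bases, so the values behave as abundances rescaled by length, and a gene listed at 0 gets no fold here. Symbols matched 12692 of 13006 identifiers.

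Counts of all 16 libraries were filtered with filterByExpr, scaled by TMM and fitted by group with edgeR 4.0.16 (quasi-likelihood test, R 4.3.3); p-values were adjusted by Benjamini-Hochberg over 12918 genes, and calls are at an adjusted p under 0.05. On simulated data in which 200 of 12918 genes were changed, 26.9% of 1.5-fold, 70.1% of 2-fold and 81.8% of 4-fold changes were recovered, with 9 false calls. In the real comparison 50.4% of genes were called, so these rates may not hold for it. Alternatives were library totals, DESeq2 1.42.0 (tool and size factors), other filters, a fit of the 8 libraries alone, a replicate block, limma 3.58.1 and leaving out libraries; the last of these as the pair CV replicates 1 and 2, like limma, was chosen after seeing the data.

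Members and gene lists were chosen with earlier results of these data known, so they give no independent support. Genes were named by rule: the 15 largest rises and falls with at least 20 CPM in the higher group, up to 4 members per list with at least 2 CPM and per stem family of at least 8 genes, all called and with groups that did not overlap, and the 10 genes gaining and losing most share of the total. Genes named beyond the rule were chosen after their values were seen, and a few genes that the rule picked are not reported here. Promoter windows came from RefSeq, GRCm38.p6.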

Additional observations from a re-analysis of the deposited data

Results flagged for a closer look

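In 54 of 668 groups of 4 libraries, over 334 named genes, 1 library lay further from the other 3 than Dixon's 95% limit allows. Chance alone gives about 1 in 20 for normally distributed values. A library above 0 beside 3 at 0 is always flagged, so the count cannot be set against that rate. Each value below is the CPM of that library, with the range of the other 3 in brackets. CV replicate 1 was high for Afp at 0.356 (0.0589 to 0.0764), Gpx2 at 0.214 (0 to 0), Prtn3 at 33.7 (0 to 2.3), Slc22a26 at 200 (148 to 156) and Tff3 at 1.92 (0 to 0.236). CV replicate 1 was low for Agxt2 at 91 (105 to 106), Aox3 at 69.8 (92 to 94.7), Birc5 at 0.356 (0.611 to 0.648), Sema6d at 1.99 (3.74 to 4.01), Serpind1 at 377 (425 to 428), Slc43a1 at 3.7 (8.19 to 8.59) and Slc7a8 at 1.57 (2.36 to 2.44). CV replicate 2 was high for Aldh2 at 3900 (3470 to 3530), Fth1 at 2770 (2260 to 2310), Serpina5 at 0.153 (0 to 0) and Trpm2 at 4.28 (2.06 to 2.42). CV replicate 2 was low for Pdk1 at 33.8 (50.4 to 53.6). CV replicate 3 was high for Cxcl2 at 0.756 (0 to 0), Cyp2e1 at 7670 (5300 to 5630), Grb10 at 1.51 (0.764 to 0.884), Rab3b at 1.03 (0.0764 to 0.214) and Rab44 at 0.619 (0 to 0). CV replicate 3 was low for Bcl2a1a at 0.137 (0.854 to 0.993) and Sult2a1 at 1290 (1620 to 1680). CV replicate 4 was high for Barx2 at 0.118 (0 to 0), Dck at 2.59 (1.35 to 1.38), Gm7334 at 1.53 (0 to 0) and Zfp608 at 0.884 (0.427 to 0.481). CV replicate 4 was low for Akr1b7 at 11.4 (15.3 to 15.9). EV replicate 1 was high for Adh1 at 1790 (1650 to 1670), Col1a1 at 9.33 (5.62 to 6.18), Fgf21 at 2.6 (1.81 to 1.85), Krt79 at 167 (112 to 116), Nans at 23.6 (21 to 21.4) and Rgs7 at 12.2 (8.07 to 8.33). EV replicate 1 was low for Sephs2 at 186 (204 to 208) and Slc25a24 at 2.04 (2.72 to 2.78). EV replicate 2 was high for Adam19 at 12.2 (6.67 to 7.31), Ccr2 at 5.45 (3.53 to 3.68), Me2 at 11 (6.99 to 7.47) and Tlr8 at 5.69 (3.43 to 3.8). EV replicate 2 was low for Bcl2a1a at 1.46 (3.44 to 3.68). EV replicate 3 was high for Acot3 at 2.35 (1.07 to 1.21), Akr1b7 at 3.56 (0.84 to 1.25), Car3 at 37.1 (4.52 to 9.42), Cth at 149 (106 to 107), Cxcl2 at 12 (1.99 to 2.99), Hamp at 1990 (509 to 743), Sardh at 233 (172 to 176) and Upp2 at 62.7 (24.1 to 29.3). EV replicate 4 was high for Apoc2 at 2510 (2010 to 2060) and Sirt3 at 32.7 (26 to 26.4). EV replicate 4 was low for Ccl24 at 11.7 (26 to 28.2) and Lyve1 at 15.3 (22 to 23.1).

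For 5 named genes the change with EE differed between mice without and with MI763F by the interaction test of edgeR. Ces1c changed by -3.08 in EV against CV and by -1.88 in EM against CM on the log2 scale, a difference of -1.20 (adjusted p = 0.0179). Ces1d changed by -3.76 in EV against CV and by -2.14 in EM against CM on the log2 scale, a difference of -1.62 (adjusted p = 0.0223). Slc22a26 changed by -8.09 in EV against CV and by -4.75 in EM against CM on the log2 scale, a difference of -3.34 (adjusted p = 0.0122). Sult2a1 changed by -6.21 in EV against CV and by -2.30 in EM against CM on the log2 scale, a difference of -3.91 (adjusted p = 0.0139). Sult2a5 changed by -5.50 in EV against CV and by -2.61 in EM against CM on the log2 scale, a difference of -2.89 (adjusted p = 0.000414). All 5 fell by less with MI763F, and all 5 belong to families with close copies that may share reads.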

How the results depend on the processing

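Of 334 named genes, 318 kept their direction and their side of the threshold under every alternative in which they were tested. Among them 0 called genes changed direction. The test against 1.5-fold was not part of this count. Many of these genes were named for being called with groups apart, which favours such stability. The count of called genes was 6513, and it ranged from 5868 to 6209 with 1 library left out and was 5503 without CV replicates 1 and 2; the count of at least 2-fold calls was 2827, from 2718 to 2821 with 1 library left out. With library totals in place of TMM factors, 54.6% of tested genes were called higher and 10.3% lower, against 25.5% and 24.9%, and 22.8% and 4.43% were at least 2-fold higher and lower, against 12.9% and 8.98%; this moves the centre of the data by construction. DESeq2 called 6701 genes, and a test against 1.5-fold left 2521 of the 2-fold calls. Replicate numbers did not pair the samples: same-numbered CV and EV libraries had correlations of -0.0357, -0.0314, -0.00493 and -0.0502 of their deviations, no library correlated best with its own number, and a replicate block gave 6393 calls, 2809 of them at least 2-fold, and moved neither count by over 1.5 times. Depth limits genes near 0, whose folds rest on few counts. With 4 libraries a group, 26.9% of 1.5-fold changes were recovered in a simulation that changed only 200 genes, a setting unlike these data.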
